A study of Mus musculus with 5 samples.

Results

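The GTPases of immunity-associated proteins, or GIMAP family, are small GTP-binding proteins of lymphocytes, several of which are needed for the survival of mature T cells. Gimap1, Gimap3, Gimap4, Gimap5, Gimap6, Gimap7, Gimap8 and Gimap9 were read on 5 Affymetrix arrays of tumor-specific CD4+ T cells. They were chosen by name, as every probe set whose platform annotation gives 1 of these symbols. They are 8 of 18193 genes, and 11 of 45101 probe sets. No probe set was annotated to a Gimap gene together with another gene.

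All mice were TCR-transgenic on a SCID background, in which few other T and B cells form, of strain BALB/c and aged 7 to 12 weeks, and the transgenic receptor recognises the myeloma MOPC315. For each of the 3 activated samples, 12 to 15 mice received 100000 MOPC315 cells in 250 µl of Matrigel under the skin of the flank. Their draining axillary nodes were pooled on day 8, and cells positive for CD4 and for GB113, an antibody to the transgenic receptor, were sorted to at least 95% purity. The 2 naive samples came from the pooled nodes of TCR-transgenic SCID mice that had not been injected, and were handled in the same way, with no purity given. The treatment field of the naive samples repeats the tumor challenge, whereas their titles and descriptions name naive mice; the titles were followed. Each sample was an experiment of its own. With uninjected mice as the controls, the tumor, the Matrigel and the activation of the cells cannot be told apart. Values are probe set intensities on a linear scale, and the small number of arrays limits their precision.

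GIMAP proteins share a GTP-binding domain first known from plant defence proteins and are distant relatives of the septins. Gimap5 sits on lysosomes, and its loss in mice and rats causes a lack of T cells; Gimap3 is its closest relative. Members have been reported to bind survival and death proteins of the BCL2 family, and the genes are known to be active in resting mature T cells.

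In the RefSeq annotation of mouse assembly GRCm38.p6 the 8 genes lie side by side on chromosome 6, in the order Gimap8, Gimap9, Gimap4, Gimap6, Gimap7, Gimap1, Gimap5 and Gimap3, with 0 other protein-coding genes between them. Of the 8, 6 are on the plus strand, and Gimap6 and Gimap3 are on the minus strand. The start regions of Gimap7 and Gimap8 are printed because the estimates of these members lay farthest apart, and that of Gimap9 because its arrays varied least. Each runs 5′ to 3′ on the strand of the gene, from 250 bases before to 50 bases after the start in RefSeq. They span chr6:48718371-48718670, chr6:48647111-48647410 and chr6:48675885-48676184, all on the plus strand; Gimap8 had a second window, which is not printed. Capitals mark GGAAG, the core of sites for ETS transcription factors, on either strand. The fourth sequence, chr3:142530086-142530385 on the plus strand, is the start region of Gbp7, an interferon-induced GTPase of another family whose transcript fell. There, capitals mark the core of the interferon-stimulated response element.
Gimap7: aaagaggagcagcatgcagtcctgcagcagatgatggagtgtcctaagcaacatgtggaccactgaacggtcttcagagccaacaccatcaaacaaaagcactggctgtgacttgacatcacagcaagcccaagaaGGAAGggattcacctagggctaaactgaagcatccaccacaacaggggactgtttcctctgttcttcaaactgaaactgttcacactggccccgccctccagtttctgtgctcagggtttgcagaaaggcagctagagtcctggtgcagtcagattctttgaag
Gimap8: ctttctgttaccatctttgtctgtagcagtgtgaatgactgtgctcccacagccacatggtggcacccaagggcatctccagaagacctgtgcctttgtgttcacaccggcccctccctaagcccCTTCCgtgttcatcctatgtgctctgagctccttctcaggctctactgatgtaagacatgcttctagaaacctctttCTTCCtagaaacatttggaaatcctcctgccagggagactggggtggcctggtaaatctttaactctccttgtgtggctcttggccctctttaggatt
Gimap9: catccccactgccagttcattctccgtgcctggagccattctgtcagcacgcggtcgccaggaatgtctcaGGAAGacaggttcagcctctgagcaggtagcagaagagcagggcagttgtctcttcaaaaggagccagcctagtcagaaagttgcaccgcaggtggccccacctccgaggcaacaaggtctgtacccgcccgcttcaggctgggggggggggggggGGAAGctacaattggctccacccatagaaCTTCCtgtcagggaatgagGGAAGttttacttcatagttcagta
Gbp7: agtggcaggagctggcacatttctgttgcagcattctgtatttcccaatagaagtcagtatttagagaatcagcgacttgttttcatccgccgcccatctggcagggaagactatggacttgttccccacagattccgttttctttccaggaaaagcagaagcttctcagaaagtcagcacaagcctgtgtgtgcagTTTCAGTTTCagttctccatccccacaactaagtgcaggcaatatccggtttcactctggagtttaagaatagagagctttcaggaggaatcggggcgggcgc

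The core of the interferon-stimulated response element is a pair of GAAA boxes with any 2 bases between them. It was in the windows of 0 of 8 Gimap genes and of 6 of 7 interferon-induced GTPase genes. Over all 27025 genes in the table the share was 3.99%, so 0 of 8 is near the background. Of the 9 interferon-induced GTPases tested for expression, 7 had a window. Searches covered both strands. The ETS core was in 8 of 8 Gimap genes and 6 of the 7 others, against 73.9% of all genes. TTCNNNGAA, the palindromic STAT motif, was in 4 of 8 and 3 of 7, against 9.55%. CACCC, bound by Kruppel-like factors, was in 5 of 8 and 2 of 7, against 59.8%. TGTGGT, the RUNX motif, was in 3 of 8 and 1 of 7, against 18.9%, and the TATA box TATAAA in 1 of 8 and 2 of 7, against 15.7%. The STAT motif and the ETS core can share bases where they meet. These are matches of letters, looked for with the expression values known.

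The question was whether transcripts of this family change when naive T cells meet a tumor in the animal. All 11 probe sets were above the intensity filter, the 40th percentile of the array, on each of the 5 arrays. None of the 8 genes was called in either direction by limma with Benjamini-Hochberg adjustment at 0.05. Over the 12873 genes tested, 6.36% were called higher in activated cells and 4.14% lower, 10.5% in all. By unadjusted p under 0.05 the count was also 0 of 8, against 24.3% of all genes. With few genes called over the array as a whole, 0 of 8 adjusted calls is close to the background, and the intervals say more. For 8 of 8 genes the 95% interval of the change lay within 2-fold in either direction, as it did for 71.4% of all genes. On the log2 scale the estimates of Gimap1 and Gimap7 were somewhat higher in activated cells. Those of the other 6 were lower, with Gimap6 only at -0.01. In bulk samples fewer cells of a type and less RNA per cell cannot be told apart. In what follows a log2 difference is activated minus naive on the scale of log2(intensity + 16), with its SE. The median log2 difference of the 8 genes was -0.16, and that of all genes tested was -0.03.

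Gimap8, whose protein has several GTP-binding domains in a row, had the lowest estimate. Activated arrays 1, 2 and 3 read 1711.7, 2442.7 and 2728, and naive arrays 1 and 2 read 2875.6 and 3090. Every activated array lay below both naive arrays, but activated 3 was much nearer to naive 1 than to activated 1. The log2 difference was -0.40 ± 0.21, with a 95% interval from -0.86 to 0.06 (limma adjusted p = 0.27). As a ratio this is 0.757, with an interval from 0.551 to 1.04.

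Gimap9, which lies next to Gimap8, had the smallest spread of the family. The activated arrays read 457.9, 460 and 483.1, and the naive pair 621.5 and 551.8, so the groups did not overlap. Mean intensity was 467 ± 14.0 (SD, n = 3) after activation against 587 ± 49.3 (SD, n = 2). The log2 difference of -0.32 ± 0.15 had an interval from -0.65 to 0.02 and an adjusted p of 0.24 in limma. Of all genes tested, 95.3% had a larger residual SD across arrays than Gimap9.

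Gimap4, reported to hasten the death of T cells, was read by a pair of probe sets. The brighter one has a suffix for sequence shared between transcripts. It gave 4163.7, 5150.9 and 4486.4 after activation and 5824.9 and 5279.6 in the naive pair, without overlap, although activated 2 came close to naive 2. Its log2 difference was -0.27 ± 0.17, with an interval from -0.65 to 0.10 (limma adjusted p = 0.37). The probe set without such a suffix gave 2006.4, 2612.8 and 2518.4 against 2782.9 and 2397.6. There the groups overlapped, and the log2 difference was -0.13 (adjusted p = 0.73 in limma over all 29240 probe sets above the filter).

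Gimap8, Gimap9 and Gimap4 were the 3 genes of 8 with every activated array below both naive arrays, against 20.7% of all genes tested. The opposite order, all activated arrays above, held for 0 of 8, against 20.3% of all genes. Gimap3 had an estimate close to that of Gimap4, with 1004.8, 1127.4 and 1530.6 against 1331.5 and 1605.7. Activated 3 lay between the naive values and the other activated arrays below them. The log2 difference was -0.28 ± 0.20, with an interval from -0.72 to 0.16 (limma adjusted p = 0.44).

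Gimap5 and Gimap6 had the estimates nearest to 0. Gimap5 read 280, 281.1 and 195 against 317.3 and 210.5. Each group held high and low arrays, and the log2 difference was -0.05 ± 0.22, with an interval from -0.55 to 0.44 (limma adjusted p = 0.92). Gimap6, whose protein binds the autophagy protein GABARAPL2, read 1560.6, 1985.7 and 2297.9 against 1775.2 and 2100.8 on its brighter probe set. Its means were 1948 ± 370 (SD, n = 3) and 1938 ± 230.2 (SD, n = 2), and the log2 difference was -0.01 ± 0.19 (limma adjusted p = 0.99). The dimmer probe set of Gimap6 gave 343.1, 223.4 and 205.8 against 225.6 and 220.5, where activated 1 alone stood apart, and a log2 difference of 0.16 (limma adjusted p = 0.74). Activated 1 was thus the lowest array on the one probe set of Gimap6 and the highest on the other.

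Gimap1, required for mature B and T cells in mice, and Gimap7, a GTPase active as a dimer, had the highest estimates. Gimap1 read 767.6, 1064.5 and 989.4 against 846.4 and 773. Activated 2 and 3 were above both naive arrays and activated 1 below both, and the log2 difference was 0.20 ± 0.18, with an interval from -0.19 to 0.59 (limma adjusted p = 0.55). Gimap7 read 908.9, 1348 and 1273.3 against 942.7 and 1028.1, with activated 1 again below both naive arrays and activated 2 and 3 above. Its log2 difference was 0.23 ± 0.19, with an interval from -0.19 to 0.66 (limma adjusted p = 0.51). The dimmer probe set of Gimap7 gave 275.2, 365.9 and 265.4 against 361.9 and 135, with naive 2 far below the rest. Its log2 difference of 0.40 had the widest interval of the 11 probe sets, from -0.34 to 1.14. This was the 1 interval of 11 that reached past 2-fold; over all probe sets, 68.9% stayed within it.

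**Figure D1:**
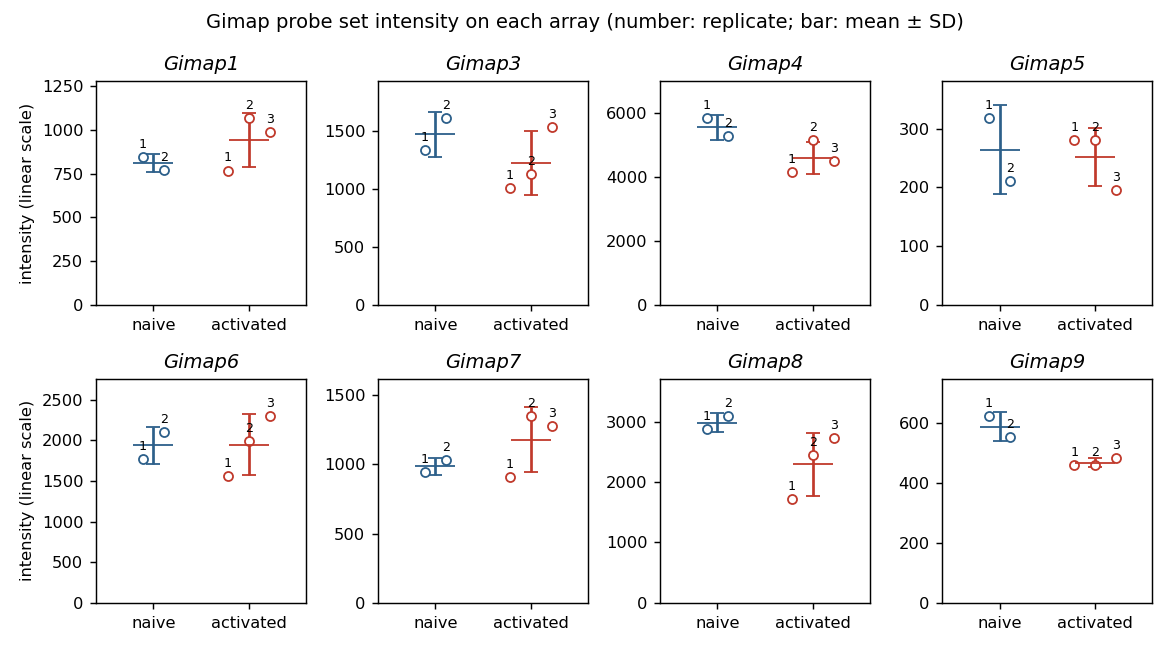
Probe set intensity (linear axis from 0) of the 8 Gimap genes on each array, with the replicate number beside each point and the group mean ± SD as a bar. Activated 1 is the lowest point in every panel but that of Gimap5, and the activated points of Gimap4, Gimap8 and Gimap9 all lie below the naive ones.

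**Figure D2:**
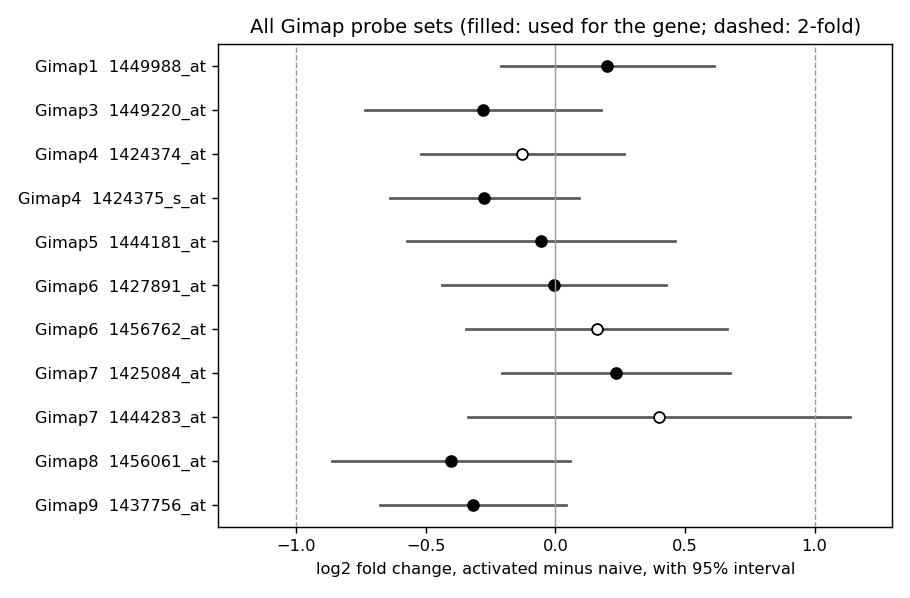
Log2 difference, activated minus naive, with its 95% interval for all 11 Gimap probe sets, from the fit over all probe sets; filled points are the probe sets used for the genes and dashed lines mark a 2-fold change. Every interval includes 0, and that of the dimmer Gimap7 probe set, from -0.34 to 1.14, alone crosses a dashed line.

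In the fit over all probe sets 0 of the 11 Gimap probe sets were called, against 4.80% of all probe sets called higher and 2.94% lower; by unadjusted p under 0.05 the count was 0, against 22.4%. The median size of the log2 difference, without its sign, was 0.25 for the 8 genes and 0.27 for all genes. The residual SD of the Gimap genes ran from 0.08 for Gimap9 to 0.32 for Gimap5, with a median of 0.25, against 0.22 over all genes. The size of the Gimap8 estimate was exceeded by 33% of all genes and that of Gimap6 by 99%.

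Activated 1 stood apart from the other arrays for most of the family. It was the lowest of the 5 arrays for 7 of the 8 genes, as it was for 22.5% of all genes tested. The exception was Gimap5, lowest on activated 3, as were 19.2% of all genes. Near ties were Gimap9, at 457.9 on activated 1 against 460 on activated 2, and Gimap1, at 767.6 against 773 on naive 2. Of the dimmer probe sets, that of Gimap4 was also lowest on activated 1, and those of Gimap6 and Gimap7 were not. The median log2 deviation of the 8 genes from their own means was -0.25 on activated 1 and between 0.05 and 0.14 on each of the other 4 arrays; over all genes it was -0.01 on activated 1. Gimap8 on activated 1 was at 0.662 times the mean of activated 2 and 3, Gimap7 at 0.693 times, Gimap6 at 0.729 times and Gimap9 at 0.971 times.

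Markers of other cells also set activated 1 apart. The summed intensity of 12 myeloid markers was 3683.6 there, 200.9 and 926 on activated 2 and 3, and 407.6 and 231.5 on the naive pair. The macrophage lysozyme gene Lyz2 alone was at 1953.9 on activated 1. Cd14 and Adgre1 were instead highest on activated 3, at 85.9 and 48.3, against 40.9 and 37.2 on activated 1. Of 10 tested myeloid markers 0 were called between the groups, against 10.5% of all genes. Their median log2 difference was 0.92. In 3 of the 10, Cd68, Itgax and Siglech, every activated array lay above both naive arrays, against 20.3% of all genes. The sum of 9 NK cell markers was 2431.7 on activated 1 and 788.2 to 1252.5 on the other 4 arrays. The NK receptor gene Ncr1 was at 265.3 against 5.6 to 11.2. Prf1 was instead highest on naive 1, at 488.1 against 300.4 on activated 1. Klrd1 was highest on naive 2, at 434.2 against 404.9. Of 8 tested NK markers 2, Eomes and Klrc1, were called higher in activated cells, against 6.36% of all genes. The sum of 10 T cell markers was highest on activated 1, at 19461.7, and lowest on naive 2, at 17140.6. Of these markers Cd3d, Cd3g and Zap70 were highest on activated 1. Cd4 and Cd247 were highest on activated 2, Cd2 and Cd5 on activated 3, and Cd3e, Lat and Thy1 on a naive array. The sum of 7 B cell markers ran from 56.8 to 99. Cd79a and Ms4a1 were at 15.2 or less on every array, near the filter intensity of 10.5 to 13.4. Pax5 and Blk reached 27.5 and 22.6, both on activated 2, and were above the filter on 4 and 3 arrays. With the groups themselves moved the CD8 chain Cd8b1, at 326.5, 246.8 and 275 after activation against 797.6 and 995.7, while Cd8a was at 79.2 or less. Of 8 endothelial and stromal markers 5 were tested, and 1 was called higher in activated cells, against 6.36% of all genes. This was Pecam1, which T cells also express. Cdh5 and Tek were at 25.3 or less. Pdpn, not called, was higher on every activated array, at 15, 22.2 and 30.8 against 13.2 and 13.8. Col3a1 reached 28.3 on activated 1. The part of these other cells in the Gimap values was not tested.

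**Figure D3:**
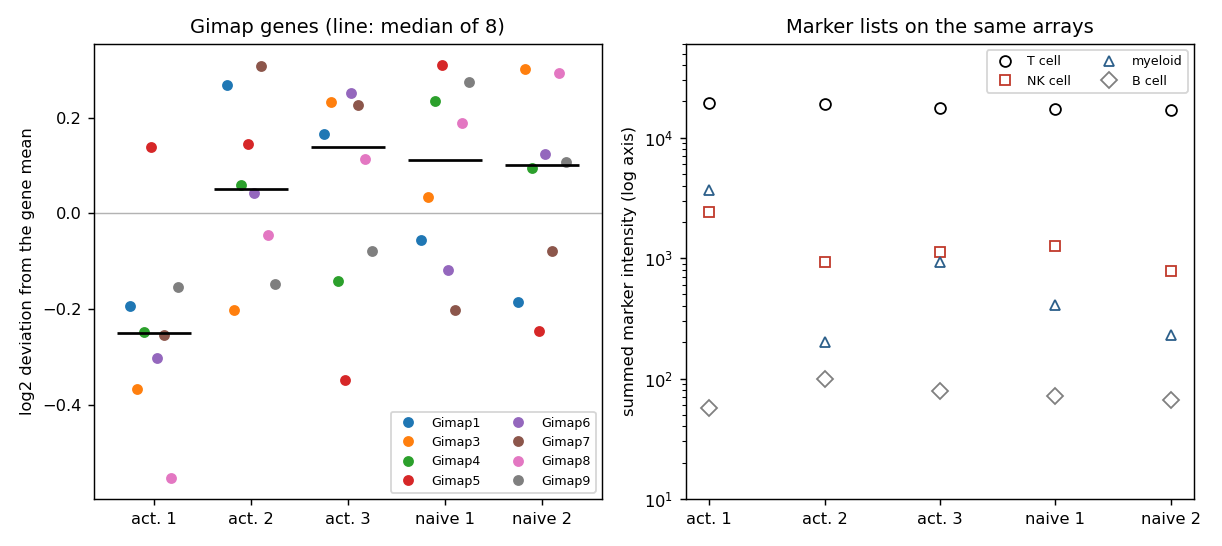
Left, log2 deviation of each Gimap gene from its own mean on each array, with the median of the 8 as a line; right, the summed intensity of marker lists on the same arrays (log axis). The median line lies at -0.25 on activated 1 and between 0.05 and 0.14 elsewhere, and activated 1 also has the highest myeloid and NK cell sums.

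Without activated 1, 0 of the 8 genes were called, with 5.47% of all genes called higher and 3.07% lower. Gimap8 moved from -0.40 to -0.21 (limma adjusted p = 0.55), and Gimap7 from 0.23 to 0.41, with an interval from 0.03 to 0.79 before adjustment (limma adjusted p = 0.20). Gimap1 lay at 0.34 (limma adjusted p = 0.29) and Gimap6 turned to 0.14 (limma adjusted p = 0.72). Gimap9 lay at -0.30 and Gimap4 at -0.21. Gimap3 lay at -0.15 and Gimap5 at -0.13. The median of the 8 was -0.14, close to that on all arrays. Other single arrays moved members as much, again with 0 calls. Without activated 2, Gimap1 lay at 0.11 and Gimap7 at 0.13. Gimap3 ran from -0.45 without activated 3 to -0.15 without naive 2, and Gimap5 from -0.33 without naive 2 to 0.23 without naive 1, a change of sign. Gimap6 ran from -0.13 without activated 3 to 0.14 without activated 1. Over the arrays left out in turn Gimap8 ran from -0.54 to -0.21, Gimap9 from -0.40 to -0.23 and Gimap4 from -0.36 to -0.20.

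A shift that touches all members on an array alike leaves their ratios in place, so the ratio of each pair of Gimap genes was taken within each array. Probe sets bind with different strength, so such a ratio has no meaning as an amount, and its difference between groups was read. The log2 ratio of Gimap7 to Gimap8, the pair with the estimates farthest apart, was -0.90, -0.85 and -1.09 after activation and -1.59 and -1.57 in the naive pair. The activated arrays, activated 1 included, lay close together and above the naive ones, by 0.64 on average. For Gimap1 to Gimap8 the log2 ratio was -1.14, -1.19 and -1.45 against -1.75 and -1.98. For Gimap6 to Gimap8 it was -0.13, -0.30 and -0.25 against -0.69 and -0.55. Relative to each of Gimap1, Gimap6 and Gimap7, Gimap8 was thus lower on every activated array than on either naive array. Among the 28 pairs, 11 had groups that did not overlap, 39.3% of them, and over all pairs of tested genes the share was 41.9%, so the count is near the background. A two-sided exact permutation test over the 10 splits of 5 arrays cannot go below p = 0.10, the value of Gimap7 to Gimap8 and of 4 other pairs. After Benjamini-Hochberg adjustment of these exact p-values over the 28 pairs the lowest was 0.51. With that floor no pair could have passed the threshold used for calls, whatever its values. The test therefore cannot decide whether any of these ratios changed. The pairs share genes, and those given were singled out after their values were seen.

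The arrays also differed in bioC, a bacterial control RNA added before hybridisation. Its mean log2 value was 9.22 to 9.41 on activated 1, activated 2 and naive 1, and 7.36 and 7.62 on activated 3 and naive 2; the labels name no such batch. Gimap5 was higher on the first 3 arrays than on the other two, without overlap, as were 11.2% of all genes tested. Gimap3 and Gimap6 were lower there, also without overlap, as were 11.5% of all genes. Within the first side the median log2 difference of the 8 genes between activated and naive was -0.24, and within the other, with 1 array a group, it was -0.09. Gimap8 was at -0.49 and -0.18 on these sides, Gimap9 at -0.42 and -0.19, Gimap1 at 0.09 and 0.35, and Gimap7 at 0.23 and 0.30. Gimap3 was at -0.32 and -0.07, Gimap4 at -0.33 and -0.23, and Gimap5 at -0.17 and -0.10. Each of these genes had the same direction on both sides, whereas Gimap6 was at -0.01 and 0.13.

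The genes that flank the family on chromosome 6 were read for comparison, 5 on each side with a probe set. Of these, 8 passed the filter and 0 were called, against 10.5% of all genes tested. Tmem176a and Tmem176b, membrane protein genes beyond the Gimap3 end, had log2 differences of -0.76 (limma adjusted p = 0.37) and -1.11 (limma adjusted p = 0.19). Tmem176b read 150.1, 21.8 and 58.2 against 186.1 and 121.8, with activated 1 between the naive values. Without activated 1 it was called, at -1.66 (limma adjusted p = 0.016). The other tested neighbours, Gpnmb, Lrrc61, Rarres2, Repin1, Zfp775 and Atp6v0e2, lay between -0.13 and 0.51, with limma adjusted p of 0.19 or more. Of these, Gpnmb, Rarres2 and Zfp775 were at 23.6 or less on every array, near the filter intensity of 10.5 to 13.4. Aoc1 and Doxl1 were below the filter.

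Genes that act with or around the GIMAP proteins were read from lists made by function. Of 11 tested genes whose products GIMAP proteins are reported to bind or act through, 2 rose and 1 fell. Over all genes tested 6.36% were called higher and 4.14% lower. The median log2 difference of the 11 genes was 0.36. The survival gene Bcl2 fell by 0.97 (limma adjusted p = 0.0060), with 352.8, 505 and 448.2 after activation and 840.9 and 883 in the naive pair; the groups lay far apart. Its call was lost without naive 2, at -0.94. Gabarapl1, an autophagy gene related to the partner of Gimap6, rose by 1.07 (limma adjusted p = 0.028), and the death promoter Bad by 0.79 (limma adjusted p = 0.020). Both lost their calls without activated 2, at 0.87 and 0.73, and without naive 2, at 0.93 and 0.67, and Gabarapl1 also without activated 3 or naive 1, at 1.07 and 1.22. On probe sets without a shared-sequence suffix they lay at 0.79 and 0.54 and were not called, and without the filter Gabarapl1 was not called. Gabarapl2 itself was at 0.36 (limma adjusted p = 0.18), the death promoter Bcl2l11, which encodes BIM, at 0.46 (limma adjusted p = 0.11), and the survival gene Mcl1 at -0.26 (limma adjusted p = 0.40).

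Of 13 tested genes of naive T cell maintenance, 0 rose and 4 fell, against 6.36% and 4.14% of all genes. Their median was -0.50. The quiescence factor Klf2 fell by 1.69, with 475.3, 670.3 and 447.7 against 1833.2 and 1607.6, and no activated array came near the naive pair. The cytokine receptor Il7r and the egress receptor S1pr1 also fell. Foxo1, a transcription factor upstream of Il7r and Klf2, fell by 0.72. It lost its call without activated 2, at -0.75, without naive 2, at -0.64, and with its probe sets averaged, at -0.44. Ets1, of the family that binds the core marked in the start regions, was at 0.41 (limma adjusted p = 0.14).

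Other GTPase families were read on the same arrays. Of 10 tested septins, cytoskeletal GTPases, 1 was called, near the share of 10.5% of all genes. This was Septin7, which rose by 0.64 (limma adjusted p = 0.045). It lost that call on leaving out any 1 array, with values from 0.47 to 0.81, and with its probe sets averaged it lay at 0.20 (limma adjusted p = 0.38). Of 9 tested interferon-induced GTPases of the immunity-related and guanylate-binding kinds, 9 fell and 0 rose, with a median of -1.37. Over all genes 4.14% were called lower and 6.36% higher. Gbp7 fell by 1.76, with 1026.9, 1076.1 and 1119.9 against 3708.1 and 3639.9 and a wide gap between the groups. Iigp1, which acts on pathogen vacuoles, fell by 1.69 and Irgm2 fell by 1.58. On leaving out 1 array, 6 to 9 of these genes were called. Gbp3 lost its call without activated 1, at -0.74, without naive 2, at -0.58, and without the intensity trend. Gbp6 lost it without naive 2, at -0.87, and Ifi47 without activated 2, naive 1 or naive 2, at -0.79, -0.76 and -0.80. The median of the Gimap genes, at -0.16, was nearer to that of all genes than the median of these GTPases was. The difference between the families as such was not tested.

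**Figure D4:**
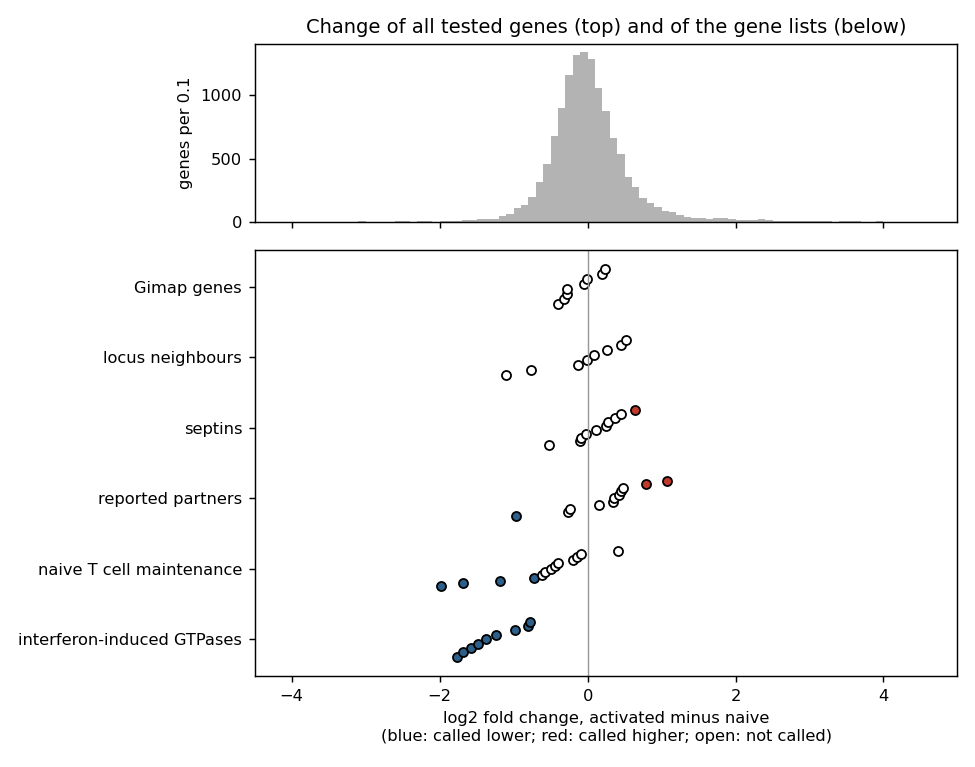
Top, number of tested genes per 0.1 of log2 difference, activated minus naive; bottom, each tested gene of the Gimap family and of 5 lists, filled where called. The Gimap genes lie between -0.40 and 0.23 around the middle of the distribution, and the 9 interferon-induced GTPases all lie to the left of them.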

How the data were processed

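The table deposited by the authors holds an intensity for each probe set and array. Per the labels' protocols, 6 µg of total RNA per sample was made into biotinylated cRNA for Affymetrix arrays. How probes were summarised is not given in the sources used here. Every array had a 2% trimmed mean of 100.0, which makes each change relative to the average of its array.

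On the scale of log2(intensity + 16), array medians lay within 0.17, under the 0.5 at which a quantile step was to be added. Platform annotation gave 34945 probe sets 1 symbol, of which 34741 matched RefSeq GRCm38.p6 by Entrez ID. A gene is its brightest such probe set, tested where it passed the 40th percentile on 2 or more arrays. All 5 arrays entered a two-sided test in limma 3.58.1 (R 4.3.3) with group as the term, an intensity trend and Benjamini-Hochberg adjustment over 12873 genes, at 0.05. Intervals are those of limma, before adjustment.

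The members and lists were chosen with earlier results of these data known. By rule, the text names each Gimap gene and probe set, the neighbours, and in each list up to 3 called genes a direction; the genes most like a called member were to be named, but no member was called. Other names were chosen after their values were seen. Genes in the lists without a probe set of their own were not analysed here. Tested on simulated data for this comparison, with 200 of 12873 genes changed in 5 runs, the fit found 69.6% of changes of 1 on the log2 scale and 99.2% of changes of 2, with 9.93% of calls false. At most 0.947% of values were equal between arrays, so none was a copy. The 18 alternatives changed the scaling, filter, pseudocount, choice of probe sets, variance model, array weights or blocks, or left out an array.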

Additional observations from a re-analysis of the deposited data

How the results depend on the processing

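In 17 of 18 alternatives 0 Gimap genes were called. The exception was the replicate number as a block, with 1 called lower, Gimap8 at -0.54 (limma adjusted p = 0.025). Over its alternatives this p ran from 0.025 to 0.55. Replicate 3 has no naive array, so under the block activated 3 does not enter the estimate. Simply leaving out activated 3 gave the same -0.54 for Gimap8, not called (limma adjusted p = 0.13). Same-numbered arrays deviated with correlations of 0.17 for replicate 1 and -0.13 for replicate 2. With 2 naive arrays, their deviations from the group mean mirror each other, so crossed numbers gave -0.17 and 0.13. These values cannot decide whether the numbers pair the samples, and the main fit has no block. The block called 974 genes higher and 796 lower, and 1 neighbour, Tmem176b. Over the alternatives the median of the Gimap genes ran from -0.24 to -0.09. Gimap5 and Gimap6 changed sign in 3 and 6 of 18 alternatives, and the other 6 genes in 0.

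Leaving out 1 array called 463 to 713 genes higher and 185 to 508 lower. The counts were 528 and 278 without activated 2, 550 and 342 without naive 1, and 463 and 185 without naive 2. It called 0 Gimap genes, 0 to 3 partners (1 without activated 2 and 0 without naive 2), 3 to 4 naive maintenance genes, 0 septins, 6 to 9 interferon-induced GTPases and 0 to 1 neighbours. A lone naive array is then assumed to vary like the others. Genes lower numbered 349 without the filter and 859 with the bioC split as a block, which called 7 naive maintenance genes. On probe sets without a suffix 1 partner was called. With median centring, without the filter, with averaged probe sets and without the trend, 0 septins were called. The cause of these changes was not tested. With 3 against 2 arrays, changes of the size inside the printed intervals cannot be set aside for the Gimap genes.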
